A study of Mus musculus with 16 samples.

Results

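The TNF receptor superfamily genes Tnfrsf12a, Tnfrsf25, Eda2r, Fas, Tnfrsf1a, Tnfrsf1b, Tnfrsf10b and Ltbr were followed across 3 siRNA knockdowns in cultured mouse spermatogonial stem cells. They were taken by name, with every probe set annotated to 1 of them alone, which gave 8 of 18193 genes and 11 of 45037 probe sets. The arrays, Affymetrix Mouse 430 2.0 GeneChips, formed 4 groups of 4: Etv5 knockdown, Bcl6b knockdown, Pou3f1 knockdown and a negative control siRNA. All groups shared a C57BL/6 background, a start from germ cell populations enriched for Thy1, 30 h of siRNA treatment, and serum-free medium with 20 ng/ml of GDNF, 150 ng/ml of GFRA1 and 1 ng/ml of FGF2. The study asked which genes act downstream of ETV5, a transcription factor of the ETS family. The knockdowns were transient and partial, and no label tells whether the 4 replicates of a group were grown separately, so the spread behind each p-value may be technical.

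Members of the TNF receptor superfamily are membrane receptors with cysteine-rich outer domains that bind trimeric ligands of the TNF family. Fas, Tnfrsf1a, Tnfrsf10b and Tnfrsf25 encode receptors with a death domain, through which FADD or TRADD is bound and caspases or NF-kB can be activated. Tnfrsf12a, Eda2r, Tnfrsf1b and Ltbr encode receptors without a death domain, which bind TRAF adaptors. In the testis, the pair of Fas and its ligand is known from work on the death of germ cells, and Fas and Eda2r are known target genes of p53.

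Each siRNA lowered its target. Etv5 averaged 1099 ± 385 intensity units in Etv5 knockdown and 2969 ± 84.0 in control (SD, n = 4 each). The Etv5 knockdown arrays read 912, 912, 1676 and 898 units, with replicate 3 the least lowered. Bcl6b averaged 721 ± 79.4 in Bcl6b knockdown and 1453 ± 83.1 in control, and Pou3f1 415 ± 71.7 in Pou3f1 knockdown and 661 ± 21.8 in control. In the Pou3f1 knockdown arrays Pou3f1 read 393, 354, 519 and 393 units, again with replicate 3 the least lowered. Bcl6b was also low in Etv5 knockdown, at 620, 618, 899 and 608 units, a log2 difference from control of -1.10 (adjusted p = 6.21e-05). Bcl6b knockdown replicate 1 stood apart: it correlated with the other arrays at 0.975 on average, where each of the rest did so at 0.9964 to 0.9971, and its log2 difference between 3' and 5' Gapdh control probe sets was 1.035, against -0.532 to -0.447. Results are therefore given with and without it. All 9 germ cell markers measured, such as Ddx4 and Zbtb16, lay above the array median on every array, and so did all 12 fibroblast markers, such as Col1a1 and Vim. The T cell markers lay below the median on every array, and macrophage, Sertoli and Leydig cell markers on both sides of it.

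Against control, 1 of 8 members passed the test in Etv5 knockdown (Tnfrsf25, lower), where 2.09% of all 11145 tested genes passed. In Bcl6b knockdown 3 passed (Tnfrsf12a and Eda2r lower, Fas higher), where 3.21% of all tested genes passed. In Pou3f1 knockdown 1 passed (Fas, higher), where 2.25% of all tested genes passed. The test was limma's moderated test on log2(intensity + 1), two-sided, adjusted by Benjamini-Hochberg over every gene tested, at a threshold of 0.05. All 8 members were bright enough to be tested. Without Bcl6b knockdown replicate 1 the median SD of a gene within groups was 0.0841 in place of 0.134, and 3, 5 and 5 members passed in Etv5, Bcl6b and Pou3f1 knockdown, where 9.52%, 10.9% and 11.4% of all tested genes passed. The median difference of the 8 members on the log2 scale was -0.13 in Etv5, -0.20 in Bcl6b and -0.23 in Pou3f1 knockdown, where that of all tested genes was -0.03, -0.01 and -0.02. The 3 comparisons share the 4 control arrays. The members were chosen with earlier results of these data known. Their counts and medians beside all tested genes, here and below, thus do not measure an excess among TNF receptors.

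**Figure D1:**
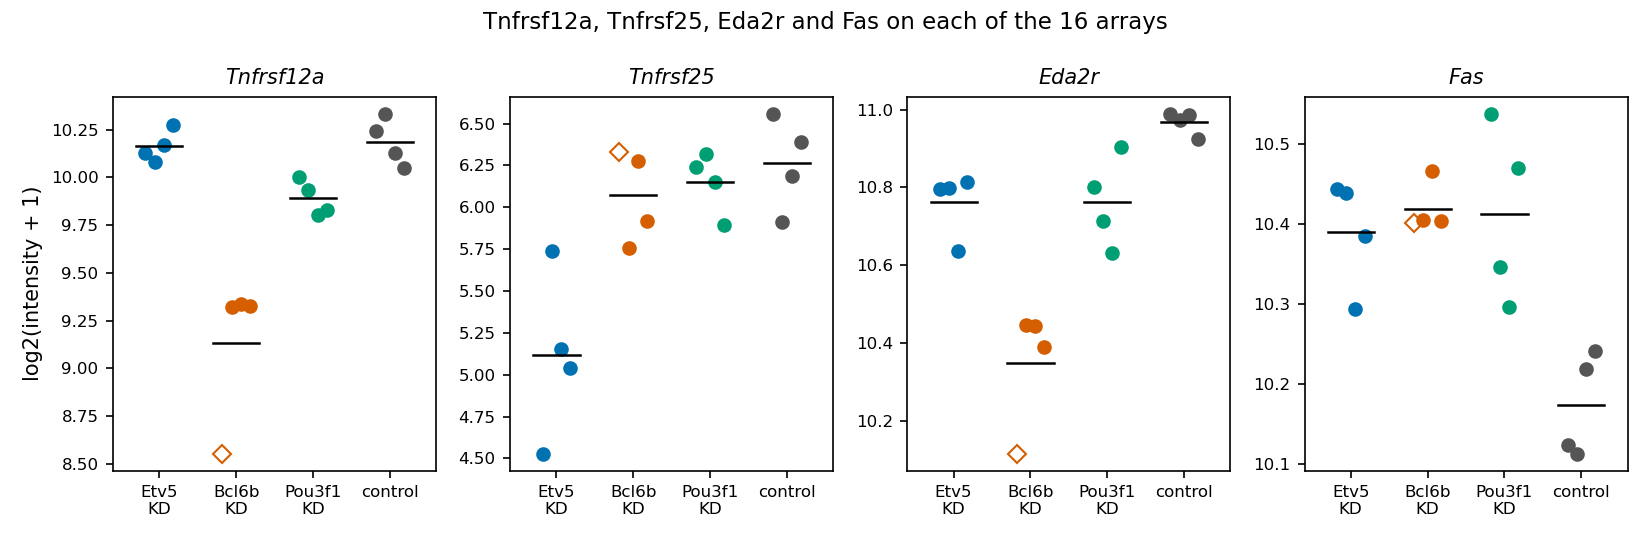
Each panel plots log2(intensity + 1) of 1 gene on each of the 16 arrays, with Etv5, Bcl6b and Pou3f1 knockdown (KD) left of control. Filled points are arrays, the open diamond is Bcl6b knockdown replicate 1, and black lines are group means. Tnfrsf12a and Eda2r were lowest in Bcl6b knockdown, Tnfrsf25 in Etv5 knockdown, and Fas was higher in every knockdown array than in every control array.

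Tnfrsf12a encodes Fn14, the receptor of the cytokine TWEAK, and has a known part in wound repair and in the growth of injured tissue. On its probe set 1418572_x_at it measured 1117, 1083, 1150 and 1237 units in Etv5 knockdown, 375, 638, 646 and 640 in Bcl6b knockdown, 1025, 976, 891 and 907 in Pou3f1 knockdown, against 1209, 1290, 1116 and 1057 in control. Every Bcl6b knockdown array lay below every other array, and every Pou3f1 knockdown array lay below every control array, while Etv5 knockdown and control overlapped. In Bcl6b knockdown Tnfrsf12a fell by 51.8% relative to control, a log2 difference of -1.05 ± 0.14 (SE; adjusted p = 4.83e-04). Replicate 1 was 0.77 lower on the log2 scale than the mean of the other Bcl6b knockdown arrays, and without it the difference was -0.86 (adjusted p = 1.28e-07). In Pou3f1 knockdown the difference was -0.30 (adjusted p = 0.402), and without that array it passed (adjusted p = 0.00365). In Etv5 knockdown it was -0.02, with a 95% interval from -0.32 to 0.27. The summed intensity of 8 Sertoli cell markers was also below all control arrays in Bcl6b knockdown, at 3962 to 5197 units (5024 to 5197 without replicate 1), against 5256 to 5587 in control. Of the 3 of these markers tested, 0 passed limma's test in Bcl6b knockdown, and 5 of the 8 lay below the array median on all arrays. The sum of the 8 endothelial markers was 2059 to 2166 units in Bcl6b knockdown, against 2179 to 2341 in control. Of the 2 tested, 0 passed. Cd34 made up most of that sum, and the other 7 markers went the other way. They summed to 300.4 to 389 units in Bcl6b knockdown (300.4 to 311 without replicate 1), against 271 to 298 in control. The part of such cells in the Tnfrsf12a result, and in the Eda2r result given further on, was not tested. The Bcl6b transcript itself differed by -0.09 between Etv5 and Bcl6b knockdown (adjusted p = 0.704).

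The suffix x_at marks a probe set that can cross-hybridise. The other probe set of Tnfrsf12a, 1418571_at, measured 769, 693, 738 and 840 units in Etv5 knockdown, 272, 423, 443 and 419 in Bcl6b knockdown, 709, 621, 576 and 633 in Pou3f1 knockdown, against 845, 859, 724 and 736 in control. It showed the same order of groups, with the Bcl6b knockdown arrays below all others. Its log2 difference from control in Bcl6b knockdown was -1.04 (adjusted p = 0.00125 in the fit of all probe sets, of which 1.28% passed), and -0.88 without replicate 1 (adjusted p = 1.92e-05, where 4.82% passed).

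The promoter of Tnfrsf12a is shown because ETS factors and BCL6 proteins bind known short motifs. RefSeq for GRCm38.p6 places it at chr17:23677400-23677699 on the minus strand, from 250 bases before to 50 bases after the start of the gene. Capitals mark the single match to the ETS core CCGGAA, whose first base lies at position -61 from the start.
Tnfrsf12a promoter: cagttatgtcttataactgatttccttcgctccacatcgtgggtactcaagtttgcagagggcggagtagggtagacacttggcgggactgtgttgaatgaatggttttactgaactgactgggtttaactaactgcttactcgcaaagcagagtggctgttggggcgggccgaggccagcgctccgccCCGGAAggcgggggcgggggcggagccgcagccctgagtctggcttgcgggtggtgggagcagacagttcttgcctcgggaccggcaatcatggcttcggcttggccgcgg
CCGGAA was searched on both strands and occurs in 14.9% of 32851 promoter windows of the same length. The BCL6 core TTCCNNGAA, also searched on both strands, occurs in 4.81% of them and had no match in this window. The sequence GGAA, read on the other strand, is TTCC, so that the motifs can overlap. A match is a description of letters, not of binding.

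Tnfrsf25 encodes the death receptor DR3, which binds TL1A and is best known from T cells. On its probe set 1422231_a_at, whose suffix marks alternative transcripts of a gene, it measured 22.1, 52.5, 34.6 and 31.9 units in Etv5 knockdown, 79.5, 53.1, 76.5 and 59.5 in Bcl6b knockdown, 74.5, 78.6, 70.2 and 58.4 in Pou3f1 knockdown, against 93.4, 59.1, 71.9 and 83.0 in control. All 4 Etv5 knockdown arrays lay below all 12 others, though replicate 2 only just. The signal was dim, and no other probe set was annotated to Tnfrsf25 alone. On the log2 scale the Etv5 knockdown arrays read 4.53 to 5.74, against array medians of 4.06 to 4.14. Tnfrsf25 fell by 54.8% in Etv5 knockdown, a log2 difference of -1.15 ± 0.21 (SE; adjusted p = 0.00833, and 8.71e-04 without Bcl6b knockdown replicate 1). The call was kept with each array left out in turn (largest adjusted p 0.0385). Against control it was -0.19 in Bcl6b knockdown (adjusted p = 0.627) and -0.11 in Pou3f1 knockdown (adjusted p = 0.934), with 95% intervals from -0.65 to 0.26 and from -0.57 to 0.34.

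The summed intensity of the 7 T cell markers measured was 39.7 to 41.7 in Etv5 knockdown and 39.2 to 40.2 in control, ranges that overlap, with each marker, Cd3e among them, below the array median on every array. The summed intensity of the 8 endothelial markers was 1774 to 1959 in Etv5 knockdown and 1843 to 2121 in Pou3f1 knockdown, against 2179 to 2341 in control, so that it was below all control arrays in every knockdown, those where Tnfrsf25 did not pass included. Cd34 made up most of that sum, and the other 7 markers summed to 114 to 208 in Etv5 knockdown, 300.4 to 389 in Bcl6b knockdown and 228 to 295 in Pou3f1 knockdown, against 271 to 298 in control. Of the 8 markers 6, Cdh5 among them, lay below the array median on every array and were not tested. Plvap fell by 1.30 on the log2 scale in Etv5 knockdown (adjusted p = 0.0014), while the Cd34 difference of -0.18 there missed the threshold with all arrays (adjusted p = 0.153) but not without Bcl6b knockdown replicate 1 (0.0317). The part of such cells in the Tnfrsf25 result was not tested, and in bulk RNA fewer cells of a type and less RNA per cell cannot be told apart.

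RefSeq gives Tnfrsf25 a pair of start windows on the plus strand, shown for comparison with that of Tnfrsf12a. They lie at chr4:152115684-152115983 and chr4:152116093-152116392, and neither holds CCGGAA or TTCCNNGAA, so no letters are in capitals.
Tnfrsf25 promoter, upstream start: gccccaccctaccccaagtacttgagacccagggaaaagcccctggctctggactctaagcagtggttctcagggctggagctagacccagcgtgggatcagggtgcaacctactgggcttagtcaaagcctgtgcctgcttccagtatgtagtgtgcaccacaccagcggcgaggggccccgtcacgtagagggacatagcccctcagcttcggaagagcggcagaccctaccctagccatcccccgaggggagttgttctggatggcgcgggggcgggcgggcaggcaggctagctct
Tnfrsf25 promoter, downstream start: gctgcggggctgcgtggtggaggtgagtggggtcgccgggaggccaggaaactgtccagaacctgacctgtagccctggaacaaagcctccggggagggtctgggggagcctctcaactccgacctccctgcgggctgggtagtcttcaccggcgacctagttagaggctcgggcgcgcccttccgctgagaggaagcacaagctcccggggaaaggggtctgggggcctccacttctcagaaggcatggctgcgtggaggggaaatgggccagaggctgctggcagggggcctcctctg
Of the 8 members 7 had a window in that table. CCGGAA was found in 4 of them (Tnfrsf12a, Tnfrsf1a, Tnfrsf1b and Ltbr) and TTCCNNGAA in 3 (Fas, Tnfrsf1a and Tnfrsf1b). Over all 32851 windows of that length the shares were 14.9% and 4.81%. With so few genes, chosen by name, the counts do not measure an excess. In Tnfrsf1b the motifs overlapped.

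Eda2r encodes XEDAR, the receptor of the A2 form of ectodysplasin. Its probe set 1440085_at measured 1777, 1781, 1592 and 1800 units in Etv5 knockdown, 1109, 1394, 1392 and 1340 in Bcl6b knockdown, 1784, 1678, 1586 and 1914 in Pou3f1 knockdown, against 2033, 2010.2, 2027 and 1942 in control. Every knockdown array lay below every control array, and the Bcl6b knockdown arrays lay below all others. Eda2r fell by 34.9% in Bcl6b knockdown, a log2 difference of -0.62 ± 0.07 (SE; adjusted p = 2.79e-04), and by 0.54 without replicate 1 (adjusted p = 6.37e-06). The call was kept under every alternative setting and with each array left out. In Etv5 and Pou3f1 knockdown the log2 differences were both -0.21 (adjusted p = 0.247 and 0.228), and without Bcl6b knockdown replicate 1 both passed (adjusted p = 0.0160 and 0.0142).

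Fas encodes the death receptor bound by the Fas ligand. Its probe set 1460251_at measured 1392, 1386, 1254 and 1336 units in Etv5 knockdown, 1351, 1354, 1414 and 1354 in Bcl6b knockdown, 1486, 1301, 1257 and 1418 in Pou3f1 knockdown, against 1114, 1106, 1191 and 1209 in control. Every knockdown array lay above every control array, and the knockdowns overlapped each other. Fas was higher by 0.25 ± 0.06 in Bcl6b knockdown (SE; adjusted p = 0.0309) and by 0.24 ± 0.06 in Pou3f1 knockdown (adjusted p = 0.0422), while the 0.22 ± 0.06 of Etv5 knockdown missed the threshold (adjusted p = 0.0774). Without Bcl6b knockdown replicate 1 all 3 passed, with adjusted p of 0.0137 in Etv5, 0.00858 in Bcl6b and 0.00634 in Pou3f1 knockdown. The call in Bcl6b knockdown was lost without Bcl6b knockdown replicate 2, 3 or 4 or control replicate 1, 2 or 3 (adjusted p up to 0.102), and of the fits that left out 1 array, that in Pou3f1 knockdown was kept only without Etv5 knockdown replicate 3, Bcl6b knockdown replicate 1 or Pou3f1 knockdown replicate 3 (adjusted p up to 0.149 otherwise). A difference of Fas shared by all knockdowns rests on the same 4 control arrays, so a change by the knockdowns and a property of the control group cannot be told apart. The summed intensity of 12 fibroblast markers was 188266 to 196794 units in Etv5 knockdown, 181043 to 190589 in Bcl6b knockdown and 182499 to 188569 in Pou3f1 knockdown, against 179599 to 181093 in control. Without Vim (vimentin), the sum was 146591 to 154371 in Etv5 knockdown, 141854 to 149359 in Bcl6b knockdown and 141366 to 147149 in Pou3f1 knockdown, against 146744 to 148101 in control, ranges that overlap. With all arrays, Vim was the 1 marker of the 12 that passed in each knockdown, and it rose by 0.33, 0.30 and 0.35 on the log2 scale. The median log2 difference of the 12 was 0.03 in Etv5, -0.02 in Bcl6b and -0.0044 in Pou3f1 knockdown, where that of all tested genes was -0.03, -0.01 and -0.02. Without Bcl6b knockdown replicate 1, 4 of the 12 rose in Etv5 knockdown (Vim, Pdgfra, Pdgfrb and Postn) and 2 in Bcl6b knockdown (Vim and Pdgfrb). In Pou3f1 knockdown 2 then rose and 2 fell (among Col1a1, Fn1, Vim and Postn). Of all tested genes 9.52%, 10.9% and 11.4% passed in that fit. The part of such cells in the Fas result was not tested.

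**Figure D2:**
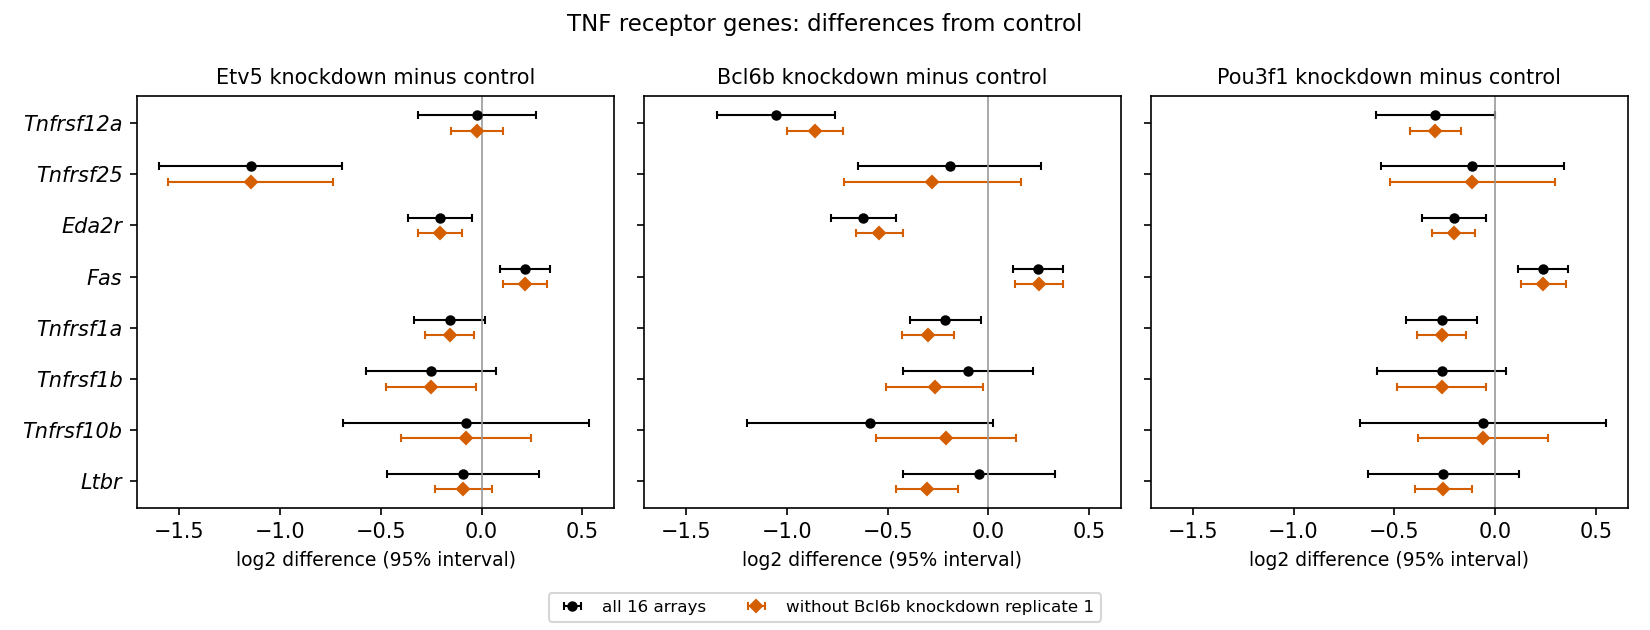
Log2 differences of the 8 members from control with 95% intervals, for Etv5, Bcl6b and Pou3f1 knockdown, with all 16 arrays (black circles) and without Bcl6b knockdown replicate 1 (orange diamonds). The intervals narrow without that array, and Tnfrsf12a in Bcl6b knockdown is at -1.05 with it and -0.86 without it.

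The contrast of Tnfrsf12a, Tnfrsf25, Eda2r and Fas was tested between the knockdowns themselves, which leaves the control arrays out of the difference. Among all 8 members 3 passed between Etv5 and Bcl6b knockdown (1.49% of all tested genes), 1 between Etv5 and Pou3f1 knockdown (1.44%) and 2 between Bcl6b and Pou3f1 knockdown (2.18%). Without Bcl6b knockdown replicate 1 these were 3, 2 and 2 members, where 4.5%, 6.36% and 5.11% of all tested genes passed, and Tnfrsf12a was then also called between Etv5 and Pou3f1 knockdown (0.27, adjusted p = 0.0102). Tnfrsf12a was higher in Etv5 than in Bcl6b knockdown by 1.03 (adjusted p = 0.00166; 0.84 without Bcl6b knockdown replicate 1), and lower in Bcl6b than in Pou3f1 knockdown by a log2 difference of -0.76 (adjusted p = 0.00572; -0.56 without it). Eda2r was higher in Etv5 than in Bcl6b knockdown by 0.41 (adjusted p = 0.00947) and differed by -0.41 between Bcl6b and Pou3f1 knockdown (adjusted p = 0.00528), with 0.34 and -0.34 without that array, both still called.

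Tnfrsf25 took the other direction. It was lower in Etv5 than in Bcl6b knockdown by a log2 difference of -0.96 (adjusted p = 0.0346; -0.87 and 0.0223 without Bcl6b knockdown replicate 1) and than in Pou3f1 knockdown by -1.03 (adjusted p = 0.0206; 0.00299 without that array). Both calls depended on single arrays. That against Bcl6b knockdown was lost without Etv5 knockdown replicate 1, 3 or 4, Bcl6b knockdown replicate 3 or 4, Pou3f1 knockdown replicate 1, 2 or 3, or control replicate 3 or 4 (adjusted p up to 0.125). That against Pou3f1 knockdown was lost without Etv5 knockdown replicate 1 or 4 or Pou3f1 knockdown replicate 1, 2 or 3 (adjusted p up to 0.0790). For Fas no difference between knockdowns passed, with 95% intervals from -0.15 to 0.09 (Etv5 minus Bcl6b), -0.15 to 0.10 (Etv5 minus Pou3f1) and -0.12 to 0.13 (Bcl6b minus Pou3f1). Eda2r in Etv5 minus Pou3f1 knockdown had an interval from -0.16 to 0.16, and Tnfrsf25 in Bcl6b minus Pou3f1 knockdown one from -0.53 to 0.38.

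Tnfrsf1a encodes the widely expressed death-domain receptor of TNF. Its probe set 1417291_at measured 1323, 1194, 1367 and 1346 units in Etv5 knockdown, 1500.5, 1095, 1284.0 and 1184 in Bcl6b knockdown, 1359, 1182, 1153 and 1172 in Pou3f1 knockdown, against 1443, 1460, 1455 and 1477 in control. Apart from Bcl6b knockdown replicate 1, which exceeded all controls, every knockdown array lay below every control array. With all arrays no difference passed, at -0.16 in Etv5, -0.21 in Bcl6b and -0.26 in Pou3f1 knockdown (adjusted p = 0.520, 0.172 and 0.139). Without that array the differences in Bcl6b knockdown (-0.30, adjusted p = 0.00473) and Pou3f1 knockdown (-0.26, adjusted p = 0.00580) passed, and that in Etv5 knockdown did not (adjusted p = 0.0903).

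Ltbr encodes the lymphotoxin beta receptor, which drives the non-canonical NF-kB pathway. Its probe set 1416435_at measured 594, 485, 607 and 598 units in Etv5 knockdown, 1002, 468, 510 and 494 in Bcl6b knockdown, 524, 537, 489 and 480.0 in Pou3f1 knockdown, against 580.2, 633, 579 and 634 in control. Bcl6b knockdown replicate 1 read 1.03 above the mean of the other 3 on the log2 scale, and those 3 lay below all controls. The Bcl6b difference was -0.05 with that array (adjusted p = 0.899) and -0.31 without it (adjusted p = 0.0115), and the Pou3f1 difference of -0.26 did not pass with it (adjusted p = 0.654) and passed without it (0.0185). That of Etv5 knockdown was -0.09 (adjusted p = 0.959, and 0.429 without that array).

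Tnfrsf1b encodes the second TNF receptor, known mainly from leukocytes and endothelium, and Tnfrsf10b the mouse death receptor for TRAIL. Both, like Tnfrsf25, were dim. No difference of Tnfrsf1b or Tnfrsf10b from control passed, with or without Bcl6b knockdown replicate 1. Tnfrsf1b on 1418099_at had means of 71.9 ± 2.98 in Etv5 knockdown, 81.7 ± 21.2 in Bcl6b knockdown and 71.4 ± 5.14 in Pou3f1 knockdown, against 87.0 ± 17.6 in control (SD, n = 4 each), with overlap throughout. Its other probe set, 1448951_at, ranged from 17.8 to 43.0 over all 16 arrays. On that array the 2 probe sets went opposite ways relative to the mean of the other Bcl6b knockdown arrays, by 0.66 and -0.86 on the log2 scale.

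Tnfrsf10b on 1422344_s_at, a probe set shared by several transcripts, had means of 58.3 ± 11.7 in Etv5 knockdown, 44.0 ± 18.8 in Bcl6b knockdown and 59.4 ± 13.0 in Pou3f1 knockdown, against 60.8 ± 4.12 in control. Its log2 difference of -0.59 in Bcl6b knockdown (adjusted p = 0.273) was -0.21 without replicate 1, which differed from the mean of the other 3 by -1.51. The other probe set, 1421296_at, ranged from 14.2 to 26.8 and reached below the array median on 2 arrays.

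**Figure D3:**
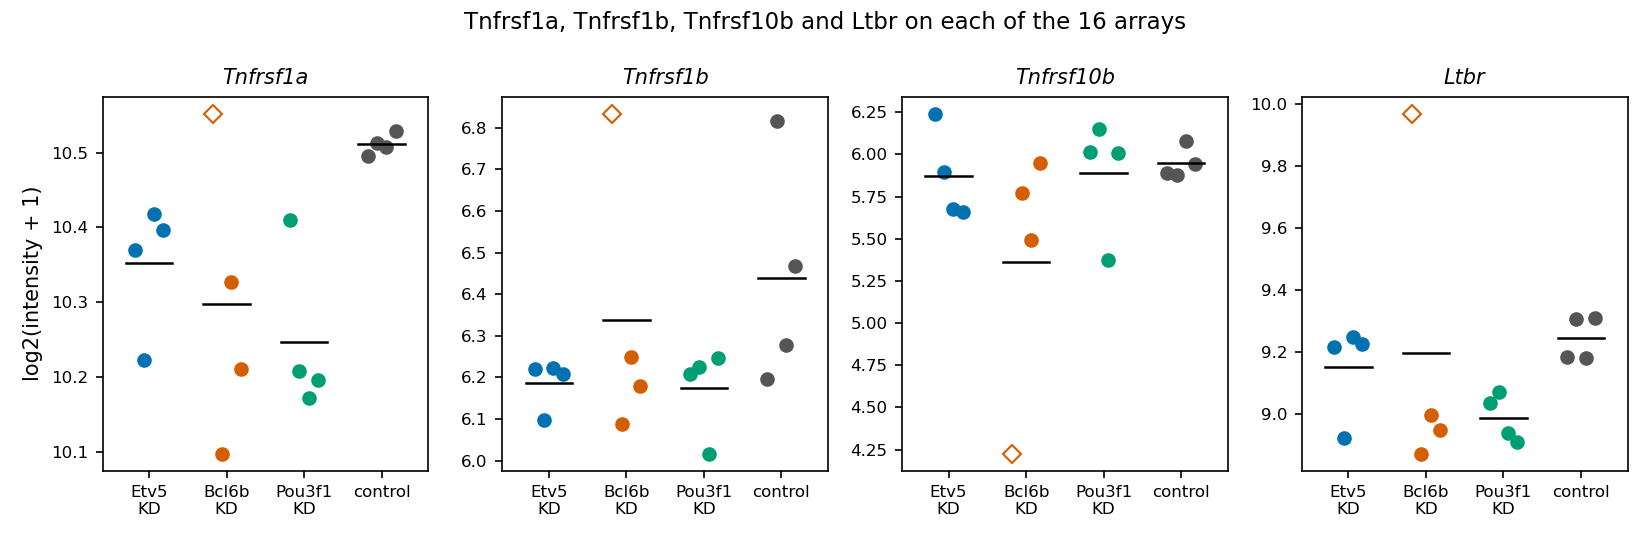
Log2(intensity + 1) of Tnfrsf1a, Tnfrsf1b, Tnfrsf10b and Ltbr on each of the 16 arrays, drawn as for the first 4 genes, with the open diamond for Bcl6b knockdown replicate 1 and black lines for group means. That array lies at the edge of its group in all 4 panels, high in Tnfrsf1a, Tnfrsf1b and Ltbr and low in Tnfrsf10b.

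By overlap of arrays, 4 of 8 members in Etv5 knockdown (1 higher, 3 lower), 3 in Bcl6b knockdown (1 higher, 2 lower) and 5 in Pou3f1 knockdown (1 higher, 4 lower) had all 4 arrays beyond all 4 control arrays. Over all tested genes this held for 17.3%, 14.7% and 18.1%. Without Bcl6b knockdown replicate 1, 5 members did so in Bcl6b knockdown (1 higher, 4 lower), where 27.4% of all tested genes did.

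The ligands of these receptors were mostly dim. Tnf, Lta, Fasl, Tnfsf10 (TRAIL), Tnfsf14 (LIGHT) and Eda lay below the array median on all 16 arrays, and Ltb above it on all 16, with means of 30.7 units in Etv5 knockdown, 29.5 in Bcl6b knockdown, 29.6 in Pou3f1 knockdown and 32.2 in control. Tnfsf12 (TWEAK) and Tnfsf15 (TL1A), the ligands of Tnfrsf12a and Tnfrsf25, were to be named too but were not among the ligands measured. Of 18 TNF ligands listed, 14 were measured and 3 tested. Tnfsf9, the ligand of 4-1BB, rose in Etv5 knockdown, to 854 ± 19.6 units against 677 ± 43.5 in control (0.34, adjusted p = 0.0306). Its differences of 0.21 in Bcl6b and 0.24 in Pou3f1 knockdown did not pass with all arrays and passed without Bcl6b knockdown replicate 1. Over all tested genes 2.09%, 3.21% and 2.25% passed in Etv5, Bcl6b and Pou3f1 knockdown with all arrays. The shares were 9.52%, 10.9% and 11.4% without that array.

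Of 20 other TNF receptors listed, 5 were tested (Tnfrsf9, Tnfrsf11b, Tnfrsf21, Tnfrsf22 and Tnfrsf23) and 0 passed limma's test in any knockdown, with 0, 0 and 1 at an unadjusted p under 0.05 in Etv5, Bcl6b and Pou3f1 knockdown. Of all tested genes 11%, 19.6% and 12.2% had such a p, and 2.09%, 3.21% and 2.25% passed. Of 22 tested adaptors and death-signalling genes 1 passed in Bcl6b knockdown and 0 in the others. It was Ripk3, the kinase of necroptosis, lower by a log2 difference of -0.32 (adjusted p = 0.0183). At an unadjusted p under 0.05 there were 3 in Etv5, 6 in Bcl6b and 6 in Pou3f1 knockdown, to be read against the same shares of all tested genes. Without Bcl6b knockdown replicate 1, Cyld passed as higher and Ripk3 as lower in all 3, with Traf4 lower in Etv5 and Daxx lower in Pou3f1 knockdown. Over all tested genes 9.52%, 10.9% and 11.4% passed in that fit.

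Of 17 tested NF-kB genes, 2 rose in every knockdown. Ikbkg, which encodes NEMO, the regulatory subunit of the IkB kinase, averaged 397 ± 10.7 units in Etv5 knockdown, 437 ± 72.7 in Bcl6b knockdown and 375 ± 22.4 in Pou3f1 knockdown, against 258 ± 12.4 in control (SD, n = 4 each), with log2 differences of 0.62, 0.74 and 0.54. Cxcl1, a neutrophil-attracting chemokine, rose by 0.30, 0.34 and 0.21. Vcam1, an adhesion molecule, fell in Bcl6b knockdown by 0.41 (adjusted p = 0.00258). The list thus had 2, 3 and 2 calls, where 2.09%, 3.21% and 2.25% of all tested genes passed. Its median difference was 0.05 in Etv5, 0.15 in Bcl6b and -0.02 in Pou3f1 knockdown, where that of all tested genes was -0.03, -0.01 and -0.02. The Bcl6b median without Bcl6b knockdown replicate 1 was 0.06 (-0.04 over all tested genes), and 2, 5 and 3 of the list then passed, where 9.52%, 10.9% and 11.4% of all tested genes did. Nfkbia, the NF-kB inhibitor, and Ccl2, a monocyte-attracting chemokine, were then also called higher in Bcl6b knockdown, by 0.13 (adjusted p = 0.0440) and 0.18 (adjusted p = 0.0244), and Vcam1 lower in Pou3f1 knockdown, with -0.26 (adjusted p = 5.09e-05, against 0.0609 with all arrays). Ccl2 differed by -0.17 in Bcl6b knockdown with all arrays (adjusted p = 0.677).

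Of 15 tested p53 target genes, a list without Fas and Eda2r, 2 fell in Etv5 knockdown (Zmat3 by 0.32 and Ei24 by 0.21), 1 in Bcl6b knockdown (Ccng1 by 0.20) and 4 in Pou3f1 knockdown (Ccng1 by 0.42, Zmat3 by 0.26, Trp53inp1 by 0.21 and Ei24 by 0.20), and 0 rose. Over all tested genes 2.09%, 3.21% and 2.25% passed in either direction. The list medians were -0.15, -0.11 and -0.15, where those of all tested genes were -0.03, -0.01 and -0.02. Without Bcl6b knockdown replicate 1, 6, 3 and 6 fell and 0, 0 and 1 rose, where 9.52%, 10.9% and 11.4% of all tested genes passed, and the Bcl6b median was -0.08. Where called with all arrays, Fas was higher and Eda2r lower.

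**Figure D4:**
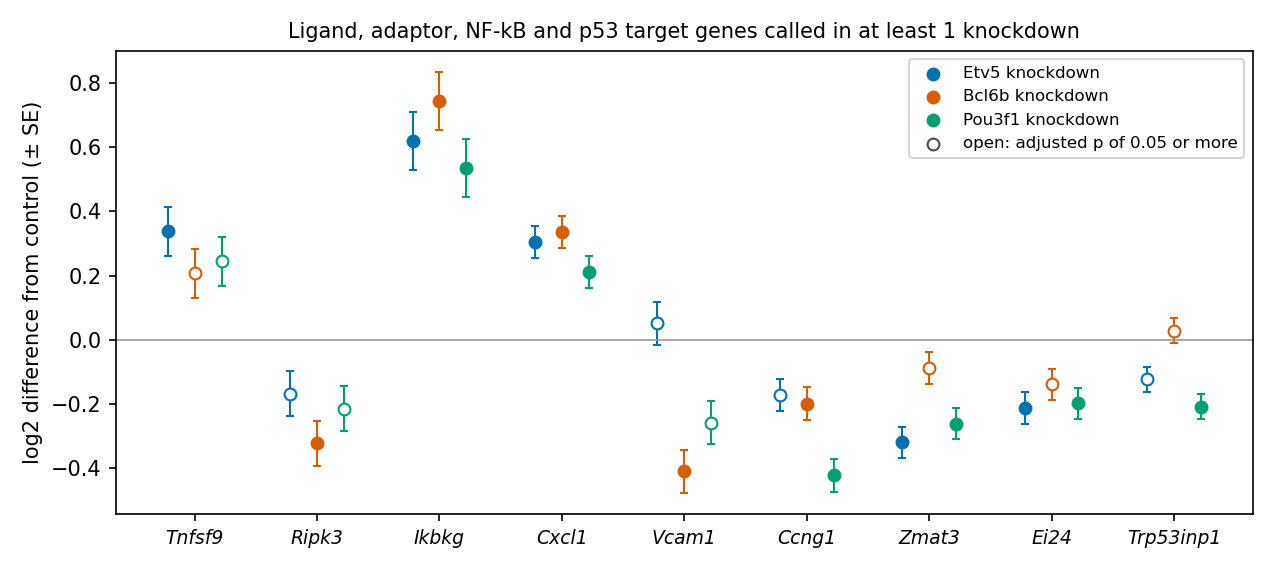
Log2 differences from control (± SE) of the ligand, adaptor, NF-kB and p53 target genes called in at least 1 knockdown, in blue for Etv5, orange for Bcl6b and green for Pou3f1 knockdown. Filled points passed the test and open points did not; Ikbkg and Cxcl1 are filled in all 3.

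The genes whose 3 differences from control lay nearest to those of each contrasted receptor were found by root mean square distance over 10773 genes. For Tnfrsf25 they were Mfsd4a (0.0817), Crmp1 (0.156) and Tmem132e (0.167). Their log2 differences in Etv5 knockdown were -1.01, -1.12 and -0.96, a likeness to Tnfrsf25 that follows from how they were picked. Mfsd4a and Crmp1 were also among the nearest 3 without Bcl6b knockdown replicate 1. For Eda2r they were Pacs2, Siae and Necap1, with Pacs2 nearest in both fits, and for Fas Taf13, Stradb and Gchfr, of which none was among the nearest 3 without that array (Rbm17, Tmem45a and Mier3).

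For Tnfrsf12a they were Thbs1, Tnfrsf22 and Tnfrsf23, with Bcl6b knockdown differences of -1.06, -0.94 and -1.20 that did not pass. Tnfrsf22 and Tnfrsf23 encode decoy receptors for TRAIL and are near-identical mouse genes whose signals can mix. Tnfrsf22 read 10.4 units in Bcl6b knockdown replicate 1, against 114, 113 and 114 in the other Bcl6b knockdown arrays, and Tnfrsf23 4.79 against 97.4, 104 and 107. Without that array their differences were -0.26, -0.11 and -0.16, and the nearest genes were Ank2, Zfp446 and Chst10. The Tnfrsf12a difference without that array was -0.86.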

How the data were processed

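RNA of 16 samples was hybridised with a biotin label after DNase treatment and oligo(dT)-primed cDNA synthesis, per the labels' protocols. The authors deposited 1 linear intensity per probe set and array, from 1.66 to 71511. Affymetrix Expression Console 1.1, Partek 6.4, MAS5 and GCRMA appear in the submitters' processing notes, without roles. Which of them made the values, and the normalization, are not given in the sources used here. Array medians were 15.6 to 17.1.

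Probe sets were named through the platform annotation: 34945 with 1 gene, 932 with several and 9160 with none. The probe set brightest on average stood for its gene. The 11145 genes above the array median on 4 or more arrays were tested. The unit of the fits was log2(deposited intensity + 1), which understates changes of dim genes. All 4 groups were fitted together with limma 3.58.1 (lmFit, eBayes with trend) in R 4.3.3. The method was tested on simulated data, and the outcome of that is not given here. A second fit held all 45037 probe sets. The alternatives varied the scaling (median or quantile), the pseudocount (16), the filter (none, or a mean log2 of 5), the probe set (their mean), array weights, the trend, the groups in the fit and the replicate block, and left out each array. Neighbours, list counts and Sertoli marker sums without Bcl6b knockdown replicate 1, and sums without Vim or Cd34, were added after seeing the data.

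Members, lists, tests and settings were chosen with earlier results of these data known. Named were all members, the ligands of the members, called list genes (at most 6 a comparison) and the 3 tested genes nearest to each contrasted receptor. List genes called only without Bcl6b knockdown replicate 1, untested or uncalled receptors, and markers were named beyond that rule, after their values were seen. Motifs were searched with Python 3.11.15 and figures drawn with matplotlib 3.10.9.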

Additional observations from a re-analysis of the deposited data

Results flagged for a closer look

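In 10 of 44 sets of 4 arrays (a probe set in a group), the highest or lowest array stood apart from the rest by more than Dixon's 95% critical value. Chance does so in about 1 in 20 independent sets. These sets share the same 16 arrays, and some genes gave several probe sets, so 10 of 44 does not measure an excess. Of the 10 sets, 4 stood apart by Bcl6b knockdown replicate 1: Tnfrsf12a at 375 units on 1418572_x_at and 272 on 1418571_at, Tnfrsf1b at 17.8 on 1448951_at and Ltbr at 1002. Etv5 knockdown gave Eda2r at 1592 in replicate 3, and Tnfrsf1b at 67.5 on 1418099_at and Ltbr at 485 in replicate 2. Bcl6b knockdown replicate 3 had Fas at 1414. Pou3f1 knockdown had Tnfrsf1a at 1359 in replicate 1 and Tnfrsf1b at 63.8 on 1418099_at in replicate 3.

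Effects of the knockdowns differed by a direct test in 6 cases. Etv5 minus Bcl6b knockdown gave log2 differences of 1.03 for Tnfrsf12a, -0.96 for Tnfrsf25 and 0.41 for Eda2r. Etv5 minus Pou3f1 knockdown gave -1.03 for Tnfrsf25, and Bcl6b minus Pou3f1 knockdown gave -0.76 for Tnfrsf12a and -0.41 for Eda2r.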

How the results depend on the processing

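Over 945 recomputed differences of the members, 844 kept their direction and side of the threshold, 50 lost a call, 28 gained one and 23 changed sign. The cause was not tested. Members called in Etv5 knockdown (1) were 4 with array weights, 4 with only the groups compared and 1 to 3 with 1 array left out. In Bcl6b knockdown (3) they were 5, 1 and 2 to 5. In Pou3f1 knockdown (1) they were 5, 5 and 0 to 5, and 0 with median centring, with no filter, with no intensity trend and with the replicate block. Leaving out Bcl6b knockdown replicate 1 gave the upper end of each range. Calls over all 11145 tested genes in Etv5, Bcl6b and Pou3f1 knockdown were 233, 358 and 251 in the main fit. They were 1662, 2082 and 1744 with array weights, 996, 62 and 1140 with only the groups compared, and 1061, 1220 and 1268 without that array. In Pou3f1 knockdown they were 203 with median centring, 218 with no intensity trend, 195 with the replicate block and 199 of 18193 with no filter.

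With only the groups compared, Tnfrsf12a lost its call in Bcl6b knockdown (adjusted p = 0.0542), in Etv5 minus Bcl6b (0.148) and in Bcl6b minus Pou3f1 knockdown (0.157), Eda2r in the last 2 (0.238 and 0.149), Fas in Bcl6b knockdown (0.107) and Tnfrsf25 in Etv5 minus Bcl6b (0.373). With no filter Tnfrsf25 lost that call (0.0622) and Fas its call in Pou3f1 knockdown (0.0576), which it also lost with no intensity trend (0.0533). Median centring moved the split of calls over all genes in Bcl6b knockdown to 126 higher and 617 lower, against 184 and 174, and ended the Fas calls (0.0683 in Bcl6b, 0.0575 in Pou3f1 knockdown). By replicate number, 24 same-number pairs of arrays correlated at -0.263 to 0.202, and 72 pairs with unlike numbers at -0.285 to 0.201. Correlations over 0.1 were seen in 5 and 11 of them. These values alone do not show whether replicate numbers mark a batch, and the labels give none. The replicate block ended the calls of Fas (0.0571 in Bcl6b, 0.0748 in Pou3f1 knockdown) and of Tnfrsf25 between Etv5 and the other knockdowns (0.0841 and 0.0593).

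Signs turned for small differences. Array weights gave Tnfrsf10b 0.021 in Etv5 knockdown, and Eda2r 0.041 and Fas 0.013 in Etv5 minus Pou3f1. Median centring gave Fas 0.024 in Etv5 minus Bcl6b and -0.052 in Bcl6b minus Pou3f1. Leaving out 1 array gave -0.070 to 0.025 for Tnfrsf12a in Etv5, -0.27 to 0.024 for Tnfrsf1b and -0.31 to 0.060 for Ltbr in Bcl6b, and -0.15 to 0.11 for Tnfrsf10b in Pou3f1 knockdown. Between knockdowns it gave Fas -0.047 to 0.0033 in Etv5 minus Bcl6b, -0.062 to 0.019 in Etv5 minus Pou3f1 and -0.033 to 0.048 in Bcl6b minus Pou3f1, Eda2r -0.044 to 0.046 in Etv5 minus Pou3f1, and Tnfrsf25 -0.17 to 0.025 in Bcl6b minus Pou3f1. Tnfrsf10b on 1421296_at gave -0.033 in Bcl6b knockdown without replicate 1.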
